A study of Drosophila melanogaster with 10 samples.

Results

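Polycomb repressive complex 2 (PRC2) and its accessory genes were examined in the RNA of Drosophila S2 cells, together with the genes of the Polycomb repressive deubiquitinase (PR-DUB). The members were the 10 gene symbols E(z), esc, escl, Su(z)12, Caf1, Pcl, jing, Jarid2, calypso and Asx, chosen by name, and every transcript entry carrying one of them was kept. This gave 24 of 30551 transcript entries and 10 of 15240 gene symbols. The study asked how polymerization of Polyhomeotic (Ph), a protein of the other main Polycomb complex, shapes Polycomb clusters, chromatin contacts and gene expression. Its series holds 10 samples in 5 groups of 2 replicates, namely chromatin immunoprecipitation and input DNA from cells expressing Ph-ML or Ph-WT, and total RNA of S2 cells. Only the 2 S2 RNA libraries were analysed here, and the other 8 samples were not. These cells, labelled WT, are a commercial line of embryonic origin without either Ph transgene. Per the labels, 0.5 mM copper sulphate was present for 3 days.

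PRC2 places methyl groups on the lysine of histone H3 known as H3K27, the mark of Polycomb silencing. E(z) is the methyltransferase, while Esc, Su(z)12 and Caf1 are the other subunits of the core. Escl is a close relative of Esc that can take its place. Accessory proteins such as Polycomb-like (Pcl), Jing and Jarid2 bind the core and tune its activity or its recruitment. Calypso and Asx form PR-DUB, which removes ubiquitin from histone H2A and is needed for Polycomb silencing although it works against the mark that the other main complex deposits.

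Each transcript entry had a level in RPKM, its reads scaled by transcript length and by the size of the library. A gene level is the median over its entries, and errors are the SD over the 2 libraries, which the study describes as biological replicates. Steps left in the values by whole reads gave a size of 37054213 reads for the library of replicate 1 and of 9495835 reads for that of replicate 2. At these sizes, 99.9% of 23661 entries detected in both came out as whole reads. At this depth, 3 reads on 1 kb are worth 0.0810 RPKM in replicate 1 and 0.316 RPKM in replicate 2. Log2(RPKM + 1) had a Pearson r of 0.992 across genes, a description since genes are not replicates. S2 cells resemble plasmatocytes, a macrophage-like blood cell. Of 7 plasmatocyte markers, 6 reached 1 RPKM, a level that 49.5% of all genes reached. Hml only just passed it at 1.18 RPKM, and Pxn was the exception at 0.398 RPKM.

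All 10 genes had reads in both libraries, and 9 of 10 reached a mean of 1 RPKM, against 49.5% of all genes. Only Caf1, E(z) and Pcl reached 5 RPKM, a level that 29.5% of all genes reached. In replicate 2 alone, esc and Asx passed it as well, which made 5 members. The median of the 10 members was 4.90 RPKM, with library medians of 4.76 and 4.92 RPKM. The median over all genes was 0.919 RPKM, and that of the 7548 genes at 1 RPKM or more was 6.33 RPKM. Of the 10 members, 9 lay above the median of all genes, with jing below it, and only Caf1 and E(z) lay above the median of the expressed genes. In bulk RNA a low level can come from fewer expressing cells or from less RNA per cell, which cannot be told apart.

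**Figure D1:**
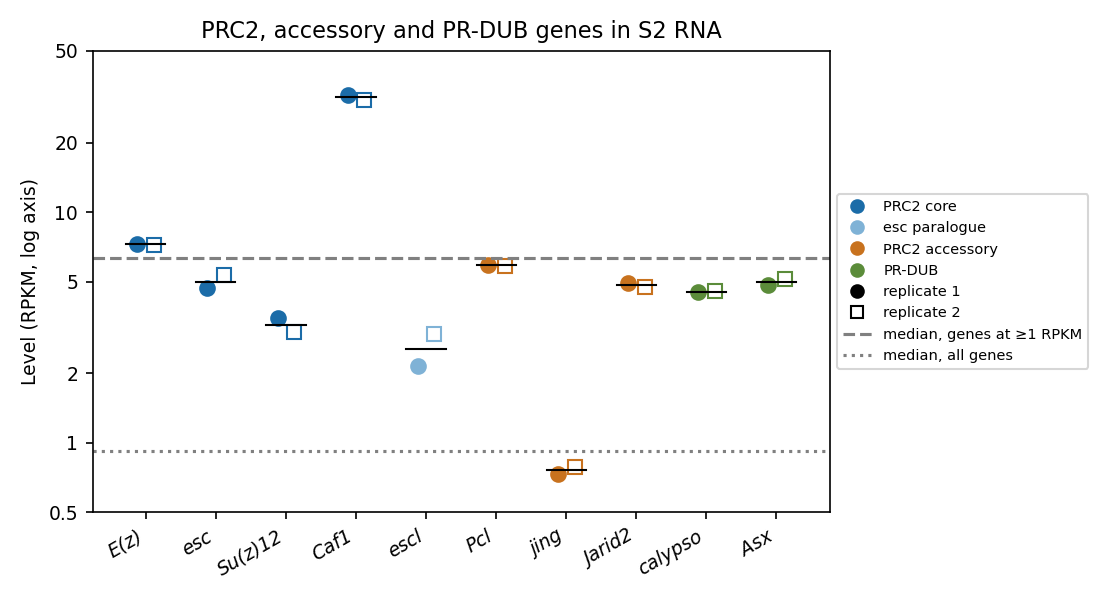
Level in RPKM (log axis) of each of the 10 genes in S2 RNA replicate 1 (filled circles) and replicate 2 (open squares), coloured by role, with the mean as a bar. The dashed line is the median of genes at 1 RPKM or more (6.33 RPKM) and the dotted line that of all genes (0.919 RPKM). Caf1 stands above both lines at 31.4 RPKM, and jing lies below both at 0.760 RPKM.

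The core subunits spanned a wide range. The catalytic subunit gene E(z) had levels of 7.30 and 7.18 RPKM in replicates 1 and 2, with a mean of 7.24 ± 0.0888 (SD, n = 2), which placed it at the 77.9th percentile of all genes. Su(z)12, whose protein links the catalytic lobe to the nucleosome-binding end of the complex, had 3.49 and 3.02 RPKM, or 3.25 ± 0.334. This was 44.9% of the E(z) level, and the libraries did not overlap between these genes. The WD-repeat gene esc had 4.67 and 5.31 RPKM, or 4.99 ± 0.455, which was 69.0% of E(z). Caf1 encodes a histone-binding WD-repeat protein and was far above the rest of the core, with 32.1 and 30.6 RPKM, or 31.4 ± 1.05. Its level was 433% of that of E(z) and stood at the 95.4th percentile of all genes.

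Whole reads allowed the ratio of 2 genes to be given with an exact 95% interval within each library, for the entry of each gene with the most reads. Intervals here cover counting error alone, as PCR copies of a molecule cannot be recognised. Caf1 had 4.40 times the reads per base of E(z) in replicate 1 (interval 4.03 to 4.80) and 4.27 times in replicate 2 (3.58 to 5.11). E(z) had 2.12 times the reads per base of Su(z)12 in replicate 1 (1.84 to 2.46) and 2.41 times in replicate 2 (1.78 to 3.30). The Su(z)12 reads are a minimum. At the largest number that the span of the gene allows, these intervals were 1.89 to 2.39 and 1.89 to 3.08. E(z) over esc was 1.56 in replicate 1 (1.36 to 1.80) and 1.35 in replicate 2 (1.04 to 1.77). All of these intervals lay above 1 in both libraries, so the order Caf1, E(z), then esc or Su(z)12 was larger than counting error.

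The paralogues esc and escl were both detected, with esc higher in each library. escl had 2.15 and 2.97 RPKM in replicates 1 and 2, a mean of 2.56 ± 0.580 (SD, n = 2) with the widest relative spread of the 10 genes at 22.7% of its mean. The level of esc minus that of escl on the log2(RPKM + 1) scale was 0.85 and 0.67, or 0.76 ± 0.13. No test was run over the 2 libraries, where an exact sign-flip permutation test cannot give a p below 0.5. esc carried 2.17 times the reads per base of escl in replicate 1 (95% interval 1.60 to 3.02) and 1.79 times in replicate 2 (1.06 to 3.21). The interval in replicate 2 only just cleared 1, and the escl value there rested on a minimum of 17 reads. At the largest number of reads that the span of escl allows, 51 in replicate 2, that interval was 1.25 to 2.58. escl made up 31.5% of the sum of both genes in replicate 1 and 35.8% in replicate 2. This sum was 6.82 and 8.28 RPKM, which was 0.934 and 1.15 times the level of E(z) in the same library, a ratio below 1 in one and above 1 in the other. esc and escl lie on the same chromosome arm with 28 annotated genes between them in the Release 6 assembly. How reads matching both were counted is not stated.

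**Figure D2:**
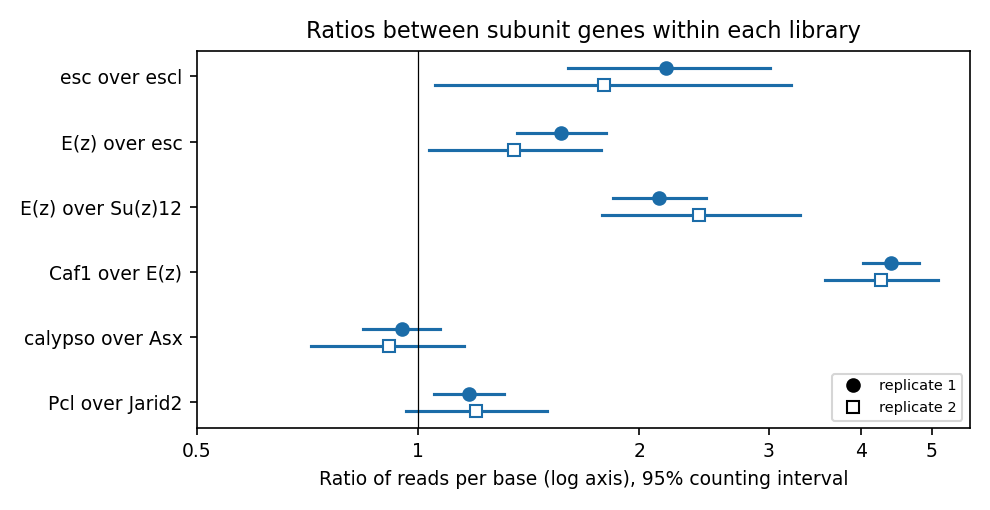
Ratio of reads per base between pairs of genes (log axis) in S2 RNA replicate 1 (filled circles) and replicate 2 (open squares), with exact 95% counting intervals as lines. The vertical line marks 1. Intervals use the minimum whole reads, so they can be too wide where a common factor exists. Caf1 over E(z) is farthest from 1 at 4.40 and 4.27, while both intervals of calypso over Asx include 1.

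Among the accessory genes, Pcl and Jarid2 lay within the range of the core genes other than Caf1, and jing was far lower. Pcl, which has Tudor and PHD domains, had 5.91 and 5.85 RPKM in replicates 1 and 2, or 5.88 ± 0.0395 (SD, n = 2). Its spread was the smallest of the 10 genes relative to its mean, at 0.673%. Jarid2, a Jumonji-family protein without demethylase activity, had 4.92 and 4.74 RPKM, or 4.83 ± 0.125. Pcl over Jarid2 was 1.17 in replicate 1 (95% interval 1.05 to 1.31) and 1.20 in replicate 2 (0.961 to 1.50), so the interval in replicate 2 included 1. The Jarid2 reads are a minimum, and at the largest number of reads that the span of the gene allows, the replicate 2 interval was 1.01 to 1.41. jing encodes a zinc finger protein, the fly counterpart of mammalian AEBP2. Its level was 0.736 and 0.783 RPKM, or 0.760 ± 0.0336, which was 10.5% of E(z) and below the median of all genes. No library of jing overlapped any library of another member.

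The PR-DUB genes were nearly level with each other. calypso, the catalytic deubiquitinase and fly counterpart of BAP1, had 4.50 and 4.55 RPKM in replicates 1 and 2, or 4.52 ± 0.0371 (SD, n = 2). Asx, its cofactor, had 4.85 and 5.11 RPKM, or 4.98 ± 0.180. The ratio of calypso to Asx was 0.949 in replicate 1 (95% interval 0.840 to 1.07) and 0.913 in replicate 2 (0.715 to 1.16). calypso was thus lower in both libraries, but by less than the counting error, and the wider interval, that of replicate 2, leaves room for a ratio from 0.715 to 1.16.

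The core was set against the accessory and PR-DUB genes by the mean log2(RPKM + 1) of each group within a library. The core of E(z), esc, Su(z)12 and Caf1 exceeded the accessory genes by 1.14 in replicate 1 and 1.13 in replicate 2, or 1.13 ± 0.01 (SD, n = 2). It exceeded the PR-DUB genes by 0.69 and 0.63, or 0.66 ± 0.04. Genes are not replicates and no test was run over the 2 libraries, so these are descriptions. Both values depended strongly on Caf1, and the value against the accessory genes also on jing. Without Caf1, the core was 0.52 ± 0.003 above the accessory genes and 0.05 ± 0.03 above the PR-DUB genes. With jing also left out, the core lay below the accessory genes, at -0.09 ± 0.01. The choice to leave out jing was made after its value was seen.

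In the order of mean levels, Caf1 came first, followed by E(z), Pcl, esc, Asx, Jarid2, calypso, Su(z)12, escl and jing. The replicate ranges of esc and Asx overlapped, as did those of Asx and Jarid2, and their order differed between the libraries. The other 7 neighbouring pairs kept their order in both libraries without overlap. Some of these gaps were small beside the depth. The 95% counting interval of Jarid2 in replicate 1 was 4.50 to 5.36 RPKM, against 4.01 to 4.96 RPKM for calypso entry NM_137252. The other calypso entry, NM_176194, had 4.07 to 5.03 RPKM. The Jarid2 interval rests on minimum reads, and a larger multiple of them would make it narrower. Su(z)12 was 1.62 times escl in replicate 1 but only 1.02 times in replicate 2.

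The transcript entries show how far isoforms can be told apart. 7 of the 10 genes had more than 1 entry. For E(z), entries NM_001144460 and NM_079297 had equal counts of 669 reads in replicate 1 and 169 reads in replicate 2. Their recovered lengths were 2464 and 2650 bases. Their values of 7.33 and 6.81 RPKM in replicate 1 therefore differed through length alone. The entries of Caf1 had equal counts of 2173 and 531 reads in replicates 1 and 2, and those of calypso had 351 and 91. Reads common to isoforms thus appear to be counted in full for each entry of these genes. Adding the entries of a gene would then count the same reads repeatedly. The 4 Asx entries ranged from 4.83 to 5.07 RPKM in mean, and the highest was 1.05 times the lowest.

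jing was the exception among the isoforms. Entry NM_001103727 had 0.131 RPKM in replicate 1 and 0.140 RPKM in replicate 2, on at least 11 and 3 reads. The other 5 jing entries had means from 0.676 to 0.851 RPKM. The 95% counting interval of NM_001103727 in replicate 1, 0.0655 to 0.235 RPKM, lay below the lowest bound among the others in that library, 0.532 RPKM for NM_001103730. In replicate 2 its interval of 0.0288 to 0.408 RPKM also lay below the others, whose lowest bound was 0.510 RPKM for NM_136371. The highest jing entry was 6.29 times the lowest, while in the other genes with several entries this ratio did not exceed 1.08. NM_001103727 and NM_001103728 were not matched in the Release 6 gene table.

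**Figure D3:**
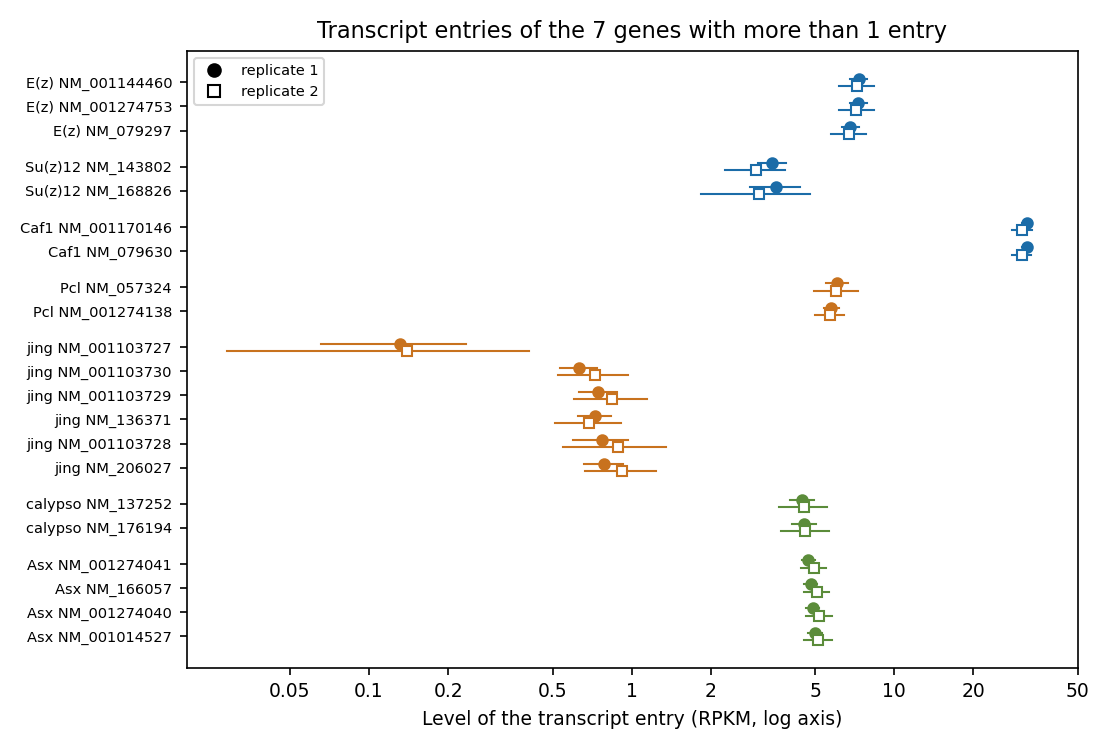
Level in RPKM (log axis) of every transcript entry of the 7 genes with more than 1 entry, in S2 RNA replicate 1 (filled circles) and replicate 2 (open squares), with exact 95% counting intervals as lines and PRC2 core genes in blue, accessory genes in orange and PR-DUB genes in green. Intervals use the minimum whole reads, so they can be too wide where a common factor exists. Entries of a gene lie close together except jing NM_001103727, at 0.131 and 0.140 RPKM.

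To compare the libraries, a two-sided exact binomial test took the minimum whole reads of the entry with the most reads in each gene. Its p-values were adjusted over 13558 genes by the Benjamini-Hochberg method. The test compares the libraries and not a condition. None (0) of the 10 members had an adjusted p under 0.05, against 9.37% of all genes tested, and 0 had an unadjusted p under 0.05, against 17.7%. The genes called were 5.92% of all as higher in replicate 2 and 3.44% as higher in replicate 1, so a count of 0 in a list this short says little. No other tool was run. Among genes at 1 RPKM or more, where 9 of the members lie, the share called was 18.4%, and over all genes with the largest reads that gene spans allow it was 15.5%, each with 0 members called. The lowest p was that of escl, at 0.280 unadjusted and 0.744 adjusted in the exact test. With the largest reads that gene spans allow, the same test gave escl 0.0504 unadjusted and 0.209 adjusted. By level, 5 of the 10 genes had the larger value in replicate 2 and the other 5 in replicate 1. The log2 difference, replicate 2 minus replicate 1, was largest for escl at 0.33, followed by Su(z)12 at -0.16 and esc at 0.15. None of the 8 members between 2 and 10 RPKM differed by more than 0.40, the 90th percentile of the absolute difference over the 4199 genes at that level.

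**Figure D4:**
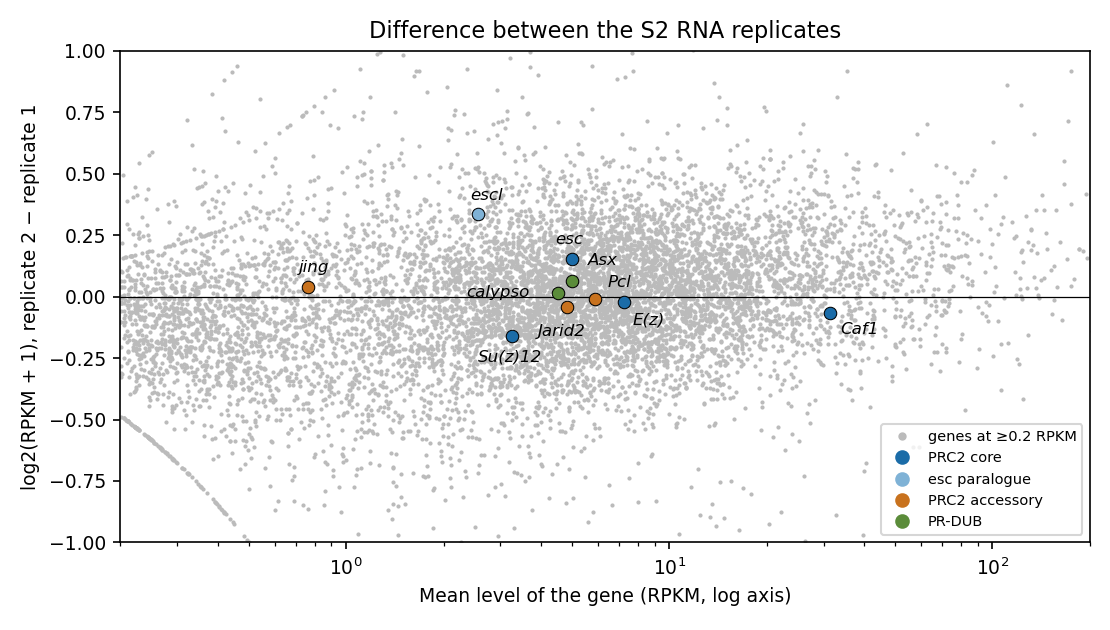
Difference in log2(RPKM + 1), S2 RNA replicate 2 minus replicate 1, against the mean level in RPKM (log axis), with all genes at 0.2 RPKM or more in grey and the 10 members coloured by role. The axes end at 200 RPKM and at ±1, which leaves out 227 of the genes. The members lie within the grey cloud, from -0.16 for Su(z)12 to 0.33 for escl.

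Reads of neighbouring genes could enter some of these values. In the Release 6 gene table, 6 of the 10 members overlap another gene, and whether counting used strand is not stated. escl overlaps dgt2, a subunit gene of the augmin complex of the spindle, which had 12.3 RPKM in replicate 1 and 13.7 RPKM in replicate 2, well above escl in both. Jarid2 overlaps pall, at 14.2 and 24.97 RPKM. calypso overlaps clu, at 11.9 and 11.2 RPKM. E(z) overlaps CG34001, at 2.17 and 1.29 RPKM. esc overlaps Pde1c, which was near 0 at 0.102 and 0.0945 RPKM. jing overlaps CG15233, at 0.328 RPKM in replicate 1 and listed at 0 in replicate 2. The part of these genes in the member values was not tested.

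Other Polycomb genes were described beside the members, without a test. Over all genes, 49.5% reached 1 RPKM and 29.5% reached 5 RPKM. Of 16 such Polycomb genes, 15 reached 1 RPKM and 8 reached 5 RPKM, with a median of 4.74 RPKM beside the 4.90 RPKM of the 10 members. The highest was sxc, the O-GlcNAc transferase, at 30.6 ± 1.09 RPKM (SD, n = 2), and the lowest was corto at 0.0550 RPKM. The read test called 2 of the 16, pho and crm, both higher in replicate 2. It called 9.37% of all genes tested, and 18.4% when only genes at 1 RPKM or more were tested. These calls compare the libraries and say little about the list.

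Genes listed as acting against PRC2, not all of them directly at H3K27, were all expressed. All 6 reached 1 RPKM, beside 49.5% of all genes, and 5 reached 5 RPKM, beside 29.5%. The list had a median of 7.73 RPKM. Utx, the demethylase of the mark, had 6.22 and 8.34 RPKM in replicates 1 and 2, or 7.28 ± 1.50 (SD, n = 2), a range that included the E(z) values. The highest of the list was fs(1)h, a bromodomain protein, at 10.4 RPKM, and the lowest was the methyltransferase ash1 at 3.94 RPKM. The read test called 2 of the 6, Utx as higher in replicate 2 and trx as higher in replicate 1. Over all genes tested the share called was 9.37%, and 18.4% in the test of genes at 1 RPKM or more. A list of 6 is too short to set against these shares.

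Caf1 also belongs to the chromatin assembly factor, the NURF and NuRD remodellers and the dREAM repressor. Beside shares of 49.5% and 29.5% over all genes, the 16 genes listed for these complexes all reached 1 RPKM, and 11 reached 5 RPKM. Their median was 10.8 RPKM, against 4.99 RPKM for the median of the PRC2 core without Caf1. Of the 16, 9 were above E(z) and only the NURF subunit Nurf-38 was above Caf1, at 56.5 and 53.5 RPKM in replicates 1 and 2. The lowest was Rbf, a retinoblastoma family gene, at 3.23 RPKM. The read test called 3 of the 16, with simj and MTA1-like higher in replicate 2 and Mi-2 higher in replicate 1. Beside this, 9.37% of all genes tested were called, and 18.4% in the test of genes at 1 RPKM or more.

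**Figure D5:**
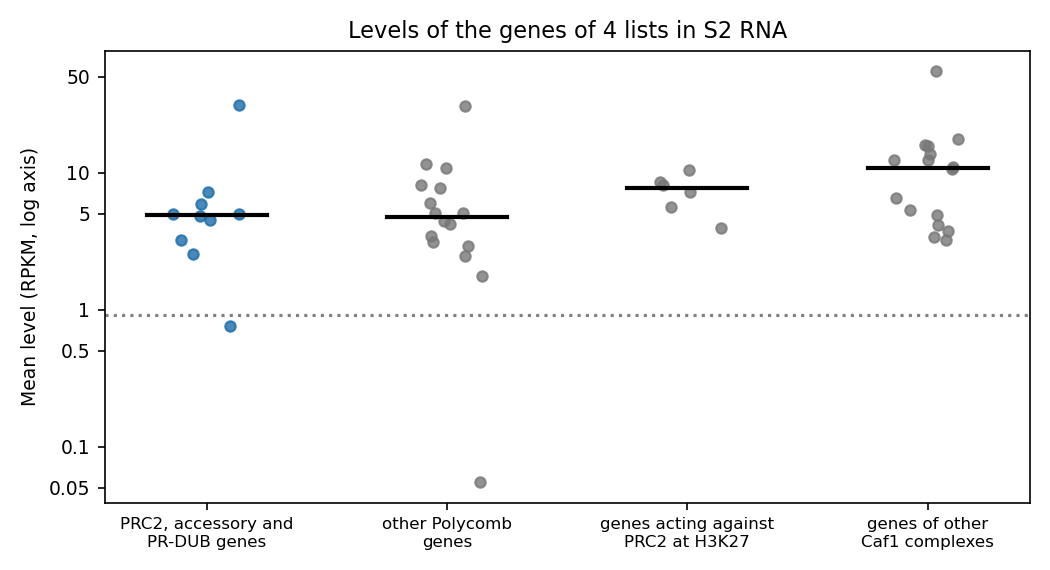
Mean level in RPKM (log axis) over the 2 S2 RNA libraries of each gene in 4 lists, with the list median as a bar and the median of all genes, 0.919 RPKM, as a dotted line. The 10 members (median 4.90 RPKM) and the 16 other Polycomb genes (4.74 RPKM) sit at similar levels, and the 16 genes of other Caf1 complexes have a median of 10.8 RPKM.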

How the data were processed

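Total RNA of S2 cells was depleted of ribosomal RNA and sequenced in single-end mode with 50 b reads. The study's methods name TopHat as the aligner and release 5 as the fly genome, and Cufflinks tools for FPKM. The authors deposited RPKM per RefSeq transcript and replicate, and the program that made these RPKM values is not given in the sources used here. Reads and transcript lengths were recovered as the smallest whole numbers that give both values within 2e-05 reads plus the rounding of the values, so they are minimum values where a common factor exists. Library sizes were fitted to the steps in the values, starting from genes of known span, and all 24 member entries were recovered. The recovery and the binomial test were tested on simulated data. Fold differences used a pseudocount of 1 on the log2 scale. Percentiles are over gene means. Symbols were looked up by transcript in the Release 6 plus ISO1 MT gene table, where Caf1 is Caf1-55 and calypso is caly. It is another release, so its coordinates served only for gene spans and for which genes overlap or lie between others, and none is printed. Of the 24 entries, 22 matched. Python 3.11.15, numpy 2.4.6, scipy 1.17.1, pandas 2.3.3 and matplotlib 3.10.9 were used. Alternatives covered the pseudocount, the summary over entries, scaling, gene filters and each replicate left out. Members and lists were chosen with earlier results of these data known. All members, and the highest and lowest gene of each of the 3 lists set beside them, were to be named; genes of the lists called by the read test were added after their values were seen. Protein and promoter sequences were not analysed here.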

Additional observations from a re-analysis of the deposited data

How the results depend on the processing

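No paired analysis was possible because a single group, S2 RNA, was analysed here and no result comes from a test between groups. The core minus the accessory genes, 1.13 on the log2 scale, was 1.11 with the highest entry of each gene, 1.15 with the mean over entries and 1.43 with a pseudocount of 0.1. It was 0.52 without Caf1, 0.52 without jing, 0.86 with escl counted in the core and -0.092 without Caf1 and jing, which turns its direction. The core minus the PR-DUB genes, 0.66, was 0.71 with a pseudocount of 0.1, 0.047 without Caf1 and 0.39 with escl in the core. A pseudocount of 0.1 also gave 0.95 for esc minus escl, in place of 0.76. The settings without jing or with escl in the core were chosen after the data were seen. Smaller pseudocounts widen differences of low genes by construction, and leaving out genes changes which genes are averaged.

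Leaving out 1 replicate gave from 4.76 to 4.92 RPKM for the median of the 10 members, from 1.13 to 1.14 for the core minus the accessory genes, from 0.63 to 0.69 for the core minus the PR-DUB genes and from 0.67 to 0.85 for esc minus escl. It gave from 3 to 5 members at 5 RPKM, with 5 when replicate 2 stood alone, since esc and Asx pass 5 RPKM only there. No member was called in the read test under any alternative run, and over these the lowest adjusted p of a member ranged from 0.209 to 0.779. With reads multiplied by the largest factor that keeps a transcript within the span of its gene and within 10000 bases, escl had an unadjusted p of 0.0504 in the exact binomial test. Of 30 levels of single members under alternatives that keep both replicates, 25 moved by no more than 1 SD between replicates, 6 of them by construction since the gene has 1 entry. The other 5 moved by more, namely those of E(z), Pcl and jing with another summary over entries, and of Pcl with scaling. Among the 24 entries, jing NM_001103727 had the fewest reads, at least 3 in replicate 2.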

Other observations

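Markers of other cell types were mostly near 0 in the same libraries. All 3 fat body markers and all 3 muscle markers were under 1 RPKM, with summed levels of 0.371 RPKM in replicate 1 and 0.0619 RPKM in replicate 2 for the fat body genes, and 0.882 and 0.592 RPKM for the muscle genes. Among these, the median entry of up was listed at 0 in both libraries. A neuron marker and a germline marker were the exceptions. elav, the RNA-binding protein of neurons, had 2.31 and 3.34 RPKM in replicates 1 and 2, close to the levels of escl. The other neuron markers, n-syb and Syt1, stayed under 1 RPKM. Reads of elav were higher in replicate 2 (adjusted p = 0.0412, exact binomial test). That test called 9.37% of all genes tested, and 18.4% when only genes at 1 RPKM or more were tested. The elav call compares the libraries and says little about the gene. aub, a piRNA pathway protein of the germline, had 5.15 and 4.96 RPKM, close to those of esc and Asx, while vas and nos stayed under 1 RPKM.

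Entries with equal recovered reads were also common over all genes, although equal counts alone do not show that the reads were shared. Of 3884 genes with several entries of at least 50 recovered reads each, 1047 (27.0%) had entries with equal reads in both libraries.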
